A study of Mus musculus with 12 samples.

Results

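The 8 genes *Pou5f1*, *Sox2*, *Sall4*, *Lin28a*, *Utf1*, *Dppa2*, *Dppa4* and *Zfp281* make up a set of core pluripotency genes. They were picked by name, by a rule that uses no measured value but with earlier results of these data known, and each was found in the count files of all 12 libraries. All 8 were among the 13191 genes that passed the filter on low counts, of 24627 genes in the files.

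Pluripotent cells hold their state with a small circuit of transcription factors. OCT4, the product of *Pou5f1*, and SOX2 bind many enhancers together and drive genes of the undifferentiated state, their own included. SALL4 and ZFP281 are zinc finger factors that work with this pair and with repressor complexes, UTF1, DPPA2 and DPPA4 are chromatin proteins of early embryonic and ES cells, and LIN28A is an RNA‐binding protein that blocks the maturation of let‐7 microRNAs.

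RNA‐seq was made from J1 XY mouse ES cells in which *Xist*, the RNA that silences the X chromosome, is switched on at its own locus by a doxycycline (DOX) inducible promoter. *Xist* FL carries the full‐length RNA. *Xist* ΔA is a separate, older line whose RNA lacks the A repeat and does not silence genes, and *Xist* ΔB+C is a CRISPR/Cas9 mutant derived from *Xist* FL whose RNA lacks the B and C repeats that recruit the Polycomb complexes. Which clone of it was sequenced is not given in the sources used here. Each line was studied at day 2 of differentiation, by LIF withdrawal, without DOX (noDOX) and with DOX at 1.5 μg/ml, with 2 replicates in each of the 6 groups. All 12 libraries thus come from differentiating XY cells that carry the inducible promoter, and none from undifferentiated or XX cells. A low input method with 100 ng of RNA was used for replicate 2 of *Xist* ΔB+C with DOX, and 1000 ng for the other libraries.

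All 8 genes are autosomal. In the GRCm38 (mm10) annotation of GENCODE, *Pou5f1* lies on chromosome 17 from 35506018 to 35510772 on the plus strand and *Sox2*, with a single exon, on chromosome 3 from 34650405 to 34652461 on the plus strand. *Sall4* is on chromosome 2 from 168748332 to 168767943, minus strand, and *Zfp281* on chromosome 1 from 136624901 to 136630053, plus strand. *Utf1* occupies 139943789 to 139945112 of chromosome 7, plus strand, and *Lin28a* 134003330 to 134018841 of chromosome 4, minus strand. *Dppa4* and *Dppa2* are neighbours on the plus strand of chromosome 16, at 48283733 to 48294237 and 48303908 to 48319723. *Sox2* sits inside *Sox2ot*, a non‐coding gene of the same strand that held only 36 to 114 counts per library. *Pou5f1*, *Sall4* and *Lin28a* overlap genes of the opposite strand that are not listed in the count files. No strand setting is named for the counting, so reads of these partners cannot be told apart from reads of the 3 genes.

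The sequences just upstream of 4 of the genes are shown because these genes differed most in how they behaved below: *Sox2* and *Utf1* had the largest differences with DOX in *Xist* FL, *Pou5f1* and *Lin28a* the smallest. RefSeq promoter sequences (GRCm38.p6) were matched for 5 of the 8 genes, these and *Zfp281*, and not for *Sall4*, *Dppa2* and *Dppa4*. Each line below is read 5′ to 3′ on the strand of the gene, covers up to 250 bases before the RefSeq start, and stops before the first base of any annotated transcript of that gene. For *Pou5f1* the first of its RefSeq starts is shown. The *Sox2* window ends before its RefSeq start, which lies upstream of the GENCODE start at 34650405. Capitals mark matches, on either strand, to the octamer‐like motif ATGCAAA, the SOX motif CATTGT, the GC box GGGCGG, the CCAAT box and the TATA box TATAAA. The windows are chr3:34649745-34649994 for *Sox2*, chr7:139943606-139943788 for *Utf1*, chr17:35505782-35506017 for *Pou5f1* and chr4:134018842-134019066 for *Lin28a*.
Sox2: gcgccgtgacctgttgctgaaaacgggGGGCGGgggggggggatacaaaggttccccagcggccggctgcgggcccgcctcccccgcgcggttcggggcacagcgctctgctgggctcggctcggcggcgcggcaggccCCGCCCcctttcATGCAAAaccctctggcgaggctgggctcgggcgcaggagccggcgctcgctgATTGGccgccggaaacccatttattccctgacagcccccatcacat
Utf1: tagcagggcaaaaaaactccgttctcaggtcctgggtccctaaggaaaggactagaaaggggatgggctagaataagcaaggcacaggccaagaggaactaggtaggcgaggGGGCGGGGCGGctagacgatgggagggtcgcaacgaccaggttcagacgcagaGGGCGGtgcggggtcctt
Pou5f1: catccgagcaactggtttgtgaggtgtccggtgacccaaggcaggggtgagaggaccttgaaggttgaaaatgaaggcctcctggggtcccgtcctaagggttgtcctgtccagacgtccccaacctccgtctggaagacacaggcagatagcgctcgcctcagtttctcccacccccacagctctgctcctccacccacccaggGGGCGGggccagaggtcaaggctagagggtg
Lin28a: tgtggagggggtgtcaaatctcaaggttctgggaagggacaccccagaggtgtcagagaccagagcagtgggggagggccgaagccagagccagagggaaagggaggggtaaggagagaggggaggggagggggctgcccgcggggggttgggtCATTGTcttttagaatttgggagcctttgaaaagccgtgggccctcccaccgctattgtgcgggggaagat

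The *Sox2* window held 1 octamer‐like match, 2 GC boxes and 1 CCAAT box, and the *Utf1* window 3 GC boxes, of which a pair overlap by 1 base. The *Pou5f1* window held 1 GC box and the *Lin28a* window 1 SOX match, and none of the 4 held a TATA box. The window of the other *Pou5f1* start, chr17:35508557-35508806, is not shown and lies within the gene. It held 1 SOX match and 1 CCAAT box, with 45.6% G and C. In all 32851 RefSeq promoters of 250 bases, 4.12% held the octamer‐like motif, 10.7% the SOX motif, 32.7% a GC box, 33.8% a CCAAT box and 12.4% a TATA box. The windows of *Utf1*, *Lin28a* and *Pou5f1* leave out the 67, 25 and 14 bases nearest the RefSeq start, where a match could also lie. Their matches therefore cover fewer bases than these shares. The *Sox2* window was the richest in G and C at 72%, against 59.6% for *Utf1*, 61.9% for *Pou5f1* and 61.3% for *Lin28a*. These are letter matches only and say nothing of what bound there.

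All 8 genes were expressed in every library, and their order could be read per kilobase of exon. The exon lengths were those of GENCODE, while the counts were made on refFlat, so the order is approximate. *Sox2* starts further upstream in RefSeq than in GENCODE, so its value per kb may be too high. On the scale of CPM, the counts scaled to a common library size, per kb, *Pou5f1* was the highest, with a median of 1086 over the 12 libraries (range 844 to 1330). *Utf1* followed at 700 (380 to 923), and their ranges overlapped slightly. *Sox2*, at 208 (137 to 347), and *Lin28a*, at 177 (166 to 198), overlapped widely and were not separated. *Dppa4* had a median of 73.5 (52 to 103), above *Sall4* at 48.6 (40.3 to 63.6) and *Zfp281* at 46.4 (40.9 to 56.1), and *Dppa2* was the lowest at 35.9 (25.8 to 45.8). The last 4 formed a chain of overlapping ranges. The least variable gene was *Lin28a*, whose highest library was 1.19‐fold above its lowest, and the most variable were *Sox2* (2.53‐fold) and *Utf1* (2.43‐fold). The lowest count of any of the 8 in any library was 2510, for *Dppa2*, so that counting error was small beside the differences between libraries.

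**Figure D1:**
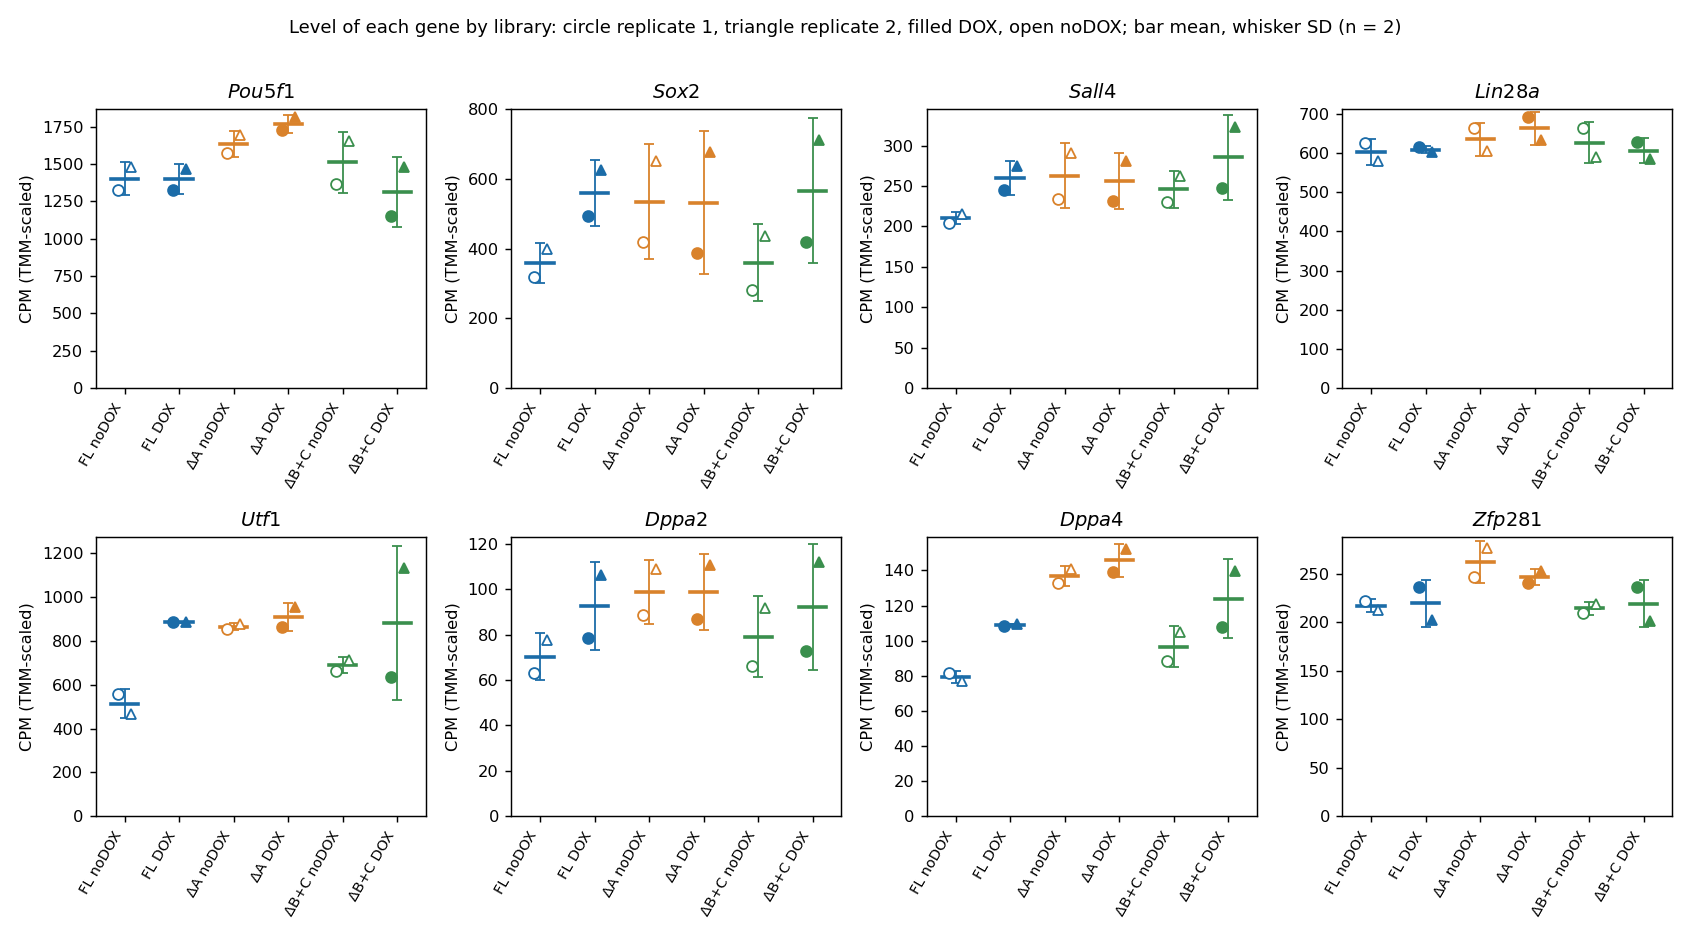
CPM of each of the 8 genes (y axis, TMM‐scaled, from 0) in each library, by line and treatment (x axis): circles are replicate 1, triangles replicate 2, filled symbols DOX and open symbols noDOX, with the mean and SD of each group. *Lin28a* stayed between 580.1 and 693 CPM, while *Utf1* ran from 466 to 1132 CPM and *Sox2* stood higher in replicate 2 in all 6 groups.

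Each library held between 31337490 and 41240470 counts. *Xist* matched the labels, with 2.48 to 8.27 CPM in the noDOX libraries and 570.1 to 1791 CPM in the DOX libraries. Its level differed between lines, with 868.7 and 907.7 CPM in *Xist* FL DOX and 722 and 570.1 CPM in *Xist* ΔA DOX. In *Xist* ΔB+C DOX it was 1791 and 1159 CPM. Without DOX it was highest in *Xist* ΔA, at 6.345 and 8.267 CPM. The study counted an *Xist*‐coated X chromosome in only part of the cells with DOX. Responses here were not adjusted for that share or for the *Xist* level. The 7 ES cell markers summed to between 1840 and 2650 CPM and all were above 1 CPM. Markers of other cell types were also present, with sums of 275 to 1010 CPM for 8 fibroblast markers, mostly *Fn1*, of 127 to 810 CPM for 8 trophoblast markers and of 60.4 to 323 CPM for 8 primitive endoderm markers. In each group 2 to 4 of the 8 fibroblast markers were under 1 CPM in both libraries. The trophoblast sums were higher in replicate 1 than in replicate 2 in all 6 groups, as with 810 and 219 CPM in *Xist* FL noDOX, and were 190 and 128 CPM in *Xist* ΔA noDOX. The primitive endoderm sums of *Xist* ΔB+C were 184 and 116 CPM without and 323 and 179 CPM with DOX. In *Xist* FL they were 106 and 89.9 CPM without and 114 and 148 CPM with DOX, and in *Xist* ΔA 86.9 and 79.9 CPM without and 71.7 and 60.4 CPM with DOX. The part of these other cell types in the results was not tested. In bulk samples fewer cells of a type and less RNA per cell cannot be told apart.

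The first comparison asked whether *Xist* induction in *Xist* FL was accompanied by a change of these genes. *Sox2* was 318 and 400.3 CPM in the noDOX replicates 1 and 2, and 494 and 627 CPM with DOX, so that the groups did not overlap. The log2 (fold change) was 0.64 ± 0.36 (SE, n = 2 against 2, adjusted p = 0.49, edgeR quasi‐likelihood test with Benjamini–Hochberg adjustment over all 13191 genes). The replicate 1 pair and the replicate 2 pair gave nearly the same log2 ratio, 0.64 and 0.65. In a model that also held the replicate number, called the block here, *Sox2* rose by 0.64 ± 0.11 (adjusted p = 0.00504, edgeR).

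*Utf1* had the largest difference. It was 560 and 466 CPM in noDOX, where it was the lowest of all groups, and 888 and 884.5 CPM with DOX. The log2 (fold change) was 0.79 ± 0.22 (adjusted p = 0.157, edgeR), and 0.78 ± 0.22 with the block (adjusted p = 0.0631, edgeR). With DESeq2 *Utf1* passed the test in both fits, together with *Dppa4*.

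*Dppa4* and *Dppa2*, whose products act as a dimer on chromatin, were also higher in each pair. *Dppa4* went from 81.8 and 77 CPM to 108 and 109 CPM with DOX, or 0.45 ± 0.13 (adjusted p = 0.168, edgeR). *Dppa2* went from 63.1 and 77.6 CPM to 78.8 and 106 CPM, which is 0.40 ± 0.26 (adjusted p = 0.553, edgeR). Both rose with the block, by 0.45 ± 0.10 (adjusted p = 0.0117) and 0.39 ± 0.08 (adjusted p = 0.0119, edgeR). *Sall4* showed the same picture at a smaller size, with 205 and 215 CPM in noDOX and 245 and 275 CPM in DOX. Its log2 (fold change) was 0.31 ± 0.16 (adjusted p = 0.45, edgeR), and with the block it rose by 0.31 ± 0.08 (adjusted p = 0.0246, edgeR).

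The other 3 genes differed little. *Pou5f1* was 1326 and 1478 CPM in noDOX and 1325 and 1468 CPM with DOX, which is −0.01 ± 0.14 on the log2 scale. *Lin28a* (626 and 580.1 CPM against 615 and 603 CPM) and *Zfp281* (222 and 212 CPM against 237 and 203 CPM) had log2 (fold changes) of 0.01 ± 0.09 and 0.02 ± 0.11. Their adjusted p‐values were between 0.965 and 0.99 without the block and between 0.894 and 0.973 with it (edgeR).

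In counts, 0 of the 8 genes passed without the block in *Xist* FL, against 0.144% of all tested genes called higher, while 2 had an unadjusted p under 0.05. DESeq2 called 2 of the 8 and limma‐voom 0. With the block 4 were higher and 0 lower, against 5.72% of all genes called higher. Their median log2 (fold change) was 0.35, and that of all tested genes −0.01. In 5 of the 8 the 2 DOX libraries were above both noDOX libraries, which held for 22.5% of all genes. The blocked calls rested on single libraries: without *Xist* FL noDOX replicate 2 or without *Xist* FL DOX replicate 1 the 4 calls became 0, and without *Xist* FL DOX replicate 2 they became 2, *Sox2* and *Dppa4*. Without *Xist* FL noDOX replicate 1 they became 5, with *Utf1* added.

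**Figure D2:**
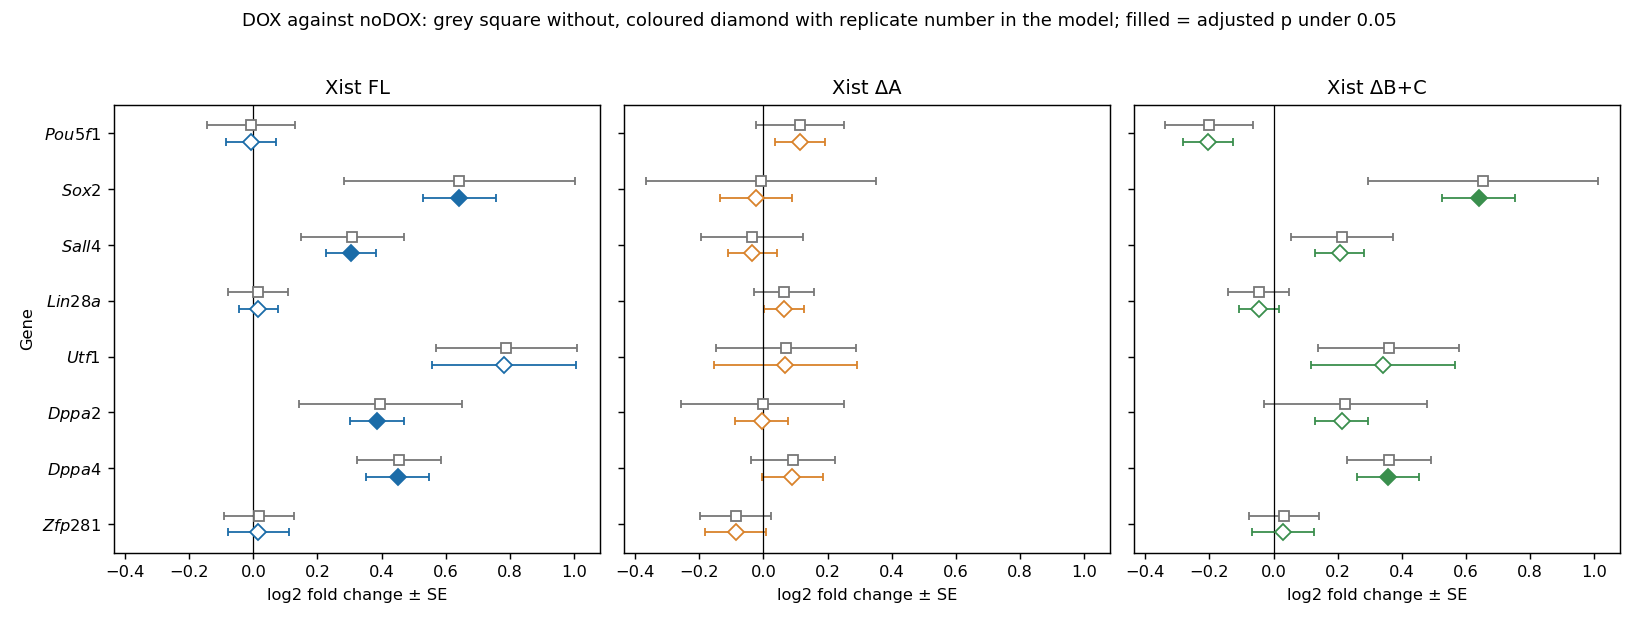
log2 (fold change) of DOX against noDOX ± SE (x axis) for each gene (y axis), with a panel for each line, from the fit without (grey squares) and with (coloured diamonds) the replicate number in the model, filled where the adjusted p was under 0.05. The block left the estimates nearly in place and narrowed most errors, and in *Xist* ΔA all 8 genes lay between −0.09 and 0.11.

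In *Xist* ΔA, the silencing‐defective line, *Sox2* was 419 and 652 CPM without DOX and 388 and 677 CPM with DOX. *Utf1* was 854 and 877.5 CPM without and 863 and 955 CPM with DOX, and *Dppa4* 133 and 141 CPM without and 139 and 152 CPM with DOX. These groups overlapped. *Pou5f1* was the 1 gene whose groups did not overlap, with 1572 and 1695 CPM in noDOX and 1724 and 1811 CPM with DOX, which held in that direction for 10.9% of all genes. Its log2 (fold change) was 0.11 ± 0.14 (adjusted p = 1, edgeR). The log2 (fold changes) of the 8 genes ran from −0.09 ± 0.11 for *Zfp281* to that of *Pou5f1*, with a median of 0.03. No gene passed: 0 of 8 with and without the block, 0 with an unadjusted p under 0.05, and 0 with DESeq2 and limma‐voom. Of all genes 0.00758% were called higher, 1 gene in either fit, which was *Xist* itself.

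In *Xist* ΔB+C, *Sox2* was 282 and 438 CPM without DOX and 419 and 713.5 CPM with DOX. Each DOX library was above its noDOX partner of the same number, although replicate 1 with DOX was below replicate 2 without. The log2 (fold change) was 0.65 ± 0.36 (adjusted p = 0.375, edgeR), and in the blocked fit *Sox2* rose by 0.64 ± 0.11 (adjusted p = 0.00345, edgeR). Without the block, leaving out 1 library moved the *Sox2* value from 0.65 to between 0.22, without DOX replicate 2, and 1.01, without noDOX replicate 2. *Dppa4* was 88.3 and 105 CPM in noDOX and 108 and 139.8 CPM with DOX, and was the only 1 of the 8 genes whose groups did not overlap, which held for 19.7% of all genes. Its log2 (fold change) was 0.36 ± 0.13 (adjusted p = 0.181, edgeR), and with the block it rose by 0.36 ± 0.10 (adjusted p = 0.0225, edgeR).

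The *Utf1* replicates of *Xist* ΔB+C went apart. *Utf1* was 663 and 715 CPM without DOX, and 635 and 1132 CPM with DOX, where the higher value is the library made from 100 ng. The log2 ratio was −0.06 in the replicate 1 pair and 0.66 in the replicate 2 pair, and the fitted log2 (fold change) 0.36 ± 0.22 (adjusted p = 0.423, edgeR). Without the low input library it was −0.12, and without DOX replicate 1 it was 0.72 (adjusted p = 0.0264, edgeR). *Dppa2*, at 66.5 and 91.8 CPM without and 72.8 and 112 CPM with DOX, had a log2 (fold change) of 0.22 ± 0.25, which was −0.12 without the low input library.

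*Pou5f1* was lower with DOX in both pairs of *Xist* ΔB+C, at 1149 and 1479 CPM against 1366 and 1656 CPM. It did not pass, with a log2 (fold change) of −0.20 ± 0.14 (adjusted p = 0.477, edgeR) and an adjusted p of 0.0838 with the block (edgeR). *Sall4* had 0.21 ± 0.16 (230 and 262 CPM against 248 and 323 CPM), *Lin28a* −0.05 ± 0.09 and *Zfp281* 0.03 ± 0.11, none of them past the test. Leaving out 1 library moved the *Sall4* value to between 0.01, without DOX replicate 2, and 0.39, without DOX replicate 1. In counts, 0 of the 8 passed without the block, against 0.811% of all genes called higher, with 1 at an unadjusted p under 0.05 and 0 with DESeq2 and limma‐voom. With the block 2 were higher, against 9.89% of all genes. That number was 1, *Sox2*, without either noDOX library of the line, and 5 without DOX replicate 1. Without the low input library 2 passed, *Sox2* higher and *Pou5f1* lower. *Sox2* kept its call with each library left out in turn, while *Dppa4* lost it without either noDOX library or without the low input library of the line. The median of the 8 was 0.22.

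Whether the response differed between lines was tested directly. The *Sox2* response was 0.66 ± 0.51 higher in *Xist* ΔB+C than in *Xist* ΔA without the block (adjusted p = 0.683, edgeR) and 0.66 ± 0.16 higher with it (adjusted p = 0.0288, edgeR). Against *Xist* FL the *Sox2* response of *Xist* ΔA was lower by a similar size, −0.65 ± 0.51 (adjusted p = 0.861) and −0.67 ± 0.16 with the block, where the adjusted p of 0.0507 lay just over the threshold (edgeR). With limma‐voom or DESeq2 and the block it passed. The responses of *Xist* FL and *Xist* ΔB+C differed by 0.01 ± 0.51 for *Sox2* and by −0.43 ± 0.31 for *Utf1* (adjusted p = 1 for both, edgeR).

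For *Utf1*, the response of *Xist* ΔA was 0.72 ± 0.31 below that of *Xist* FL (difference −0.72, adjusted p = 0.664, edgeR). For *Dppa4*, *Dppa2* and *Sall4* the differences between these lines were −0.36 ± 0.19, −0.40 ± 0.36 and −0.35 ± 0.23, with adjusted p‐values of 0.732 to 0.891 without and 0.0969 to 0.17 with the block (edgeR). So the rise of these 3 genes in *Xist* FL was not shown to be particular to that line.

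In counts, 0 of the 8 responses differed without the block in any of the 3 comparisons of lines, with unadjusted p under 0.05 for 1, 0 and 0 genes, and 0 by DESeq2 and limma‐voom. Of all genes 0%, 0% and 0.205% were called for *Xist* ΔA against *Xist* FL, *Xist* ΔB+C against *Xist* FL and *Xist* ΔB+C against *Xist* ΔA. With the block 0, 0 and 1 of the 8 passed (unadjusted p under 0.05 for 4, 0 and 3, edgeR), against 3.31%, 0% and 9.32% of all genes. The *Sox2* call between *Xist* ΔB+C and *Xist* ΔA was lost without either noDOX library of *Xist* ΔB+C, its DOX replicate 2, either noDOX library of *Xist* ΔA or its DOX replicate 1, and kept in the other 6 of 12 fits.

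Without DOX the lines themselves differed, most of all *Xist* ΔA from *Xist* FL. These comparisons use the same *Xist* FL noDOX libraries as the DOX response of that line, so the values of both rest on them. *Dppa4* was 133 and 141 CPM in *Xist* ΔA and 81.8 and 77 CPM in *Xist* FL, and was higher by 0.78 ± 0.13 (adjusted p = 0.00907, edgeR), 0.78 ± 0.10 with the block (adjusted p = 0.000174, edgeR). *Utf1*, at 854 and 877.5 CPM against 560 and 466 CPM, was 0.76 ± 0.22 higher (adjusted p = 0.0624, edgeR). It passed with the block, at 0.75 ± 0.22 (adjusted p = 0.0411, edgeR), and with DESeq2.

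*Sox2* and *Dppa2* were higher in *Xist* ΔA by 0.58 ± 0.36 and 0.49 ± 0.26 (adjusted p = 0.351 and 0.263, edgeR). With the block both passed, at 0.55 ± 0.11 (adjusted p = 0.00435) and 0.49 ± 0.08 (adjusted p = 0.00118, edgeR). *Sall4*, *Zfp281* and *Pou5f1* followed at 0.32 ± 0.16, 0.27 ± 0.11 and 0.22 ± 0.14, and passed with the block only (adjusted p = 0.00908, 0.0466 and 0.0477, edgeR). *Lin28a* was the exception, at 665 and 606 CPM against 626 and 580.1 CPM, a log2 (fold change) of 0.08 ± 0.09 (adjusted p = 0.654 without and 0.375 with the block, edgeR).

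In counts, 1 of the 8 genes was higher in *Xist* ΔA than in *Xist* FL without the block and 7 with it, against 4.3% and 16.2% of all genes called higher. The libraries of the 2 lines did not overlap in the same 7 genes, which held in that direction for 29.2% of all genes. The *Dppa4* call without the block was lost without *Xist* ΔA noDOX replicate 2 or without either *Xist* FL noDOX library. With the block, *Sox2*, *Dppa2* and *Dppa4* kept their calls with each library left out in turn, and the lowest number was 3, without *Xist* ΔA noDOX replicate 2 or *Xist* FL noDOX replicate 2. The calls of *Pou5f1*, *Utf1* and *Zfp281* held in only 2, 3 and 5 of the 12 fits. The 2 lines have separate histories, and the deletion and the history of the line cannot be told apart.

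*Xist* ΔB+C without DOX differed less from *Xist* FL than *Xist* ΔA did, with a median log2 (fold change) of the 8 of 0.139 against 0.408. *Utf1* (663 and 715 CPM), *Dppa4* (88.3 and 105 CPM) and *Sall4* (230 and 262 CPM) had log2 (fold changes) of 0.43 ± 0.22, 0.28 ± 0.13 and 0.23 ± 0.16 and adjusted p‐values of 0.852 to 0.967 (edgeR). Of the 8 genes 0 passed without the block, against 0.0227% of all genes called higher, and 0 with it, against 0.614%. Unadjusted p‐values under 0.05 numbered 0 and 2, and DESeq2 and limma‐voom also called 0. Even so, in *Utf1*, *Dppa4* and *Sall4* both *Xist* ΔB+C libraries were above both *Xist* FL libraries, which held for 17.5% of all genes. In 0 of the 8 were both below. Against *Xist* ΔA, *Xist* ΔB+C was lower for *Sox2* (−0.57 ± 0.36), *Dppa4* (−0.50 ± 0.13), *Dppa2* (−0.32 ± 0.25) and *Zfp281* (−0.29 ± 0.11). None of these passed without the block, where 2.87% of all genes were called lower (unadjusted p under 0.05 for 2 of the 8, DESeq2 1, *Dppa4*, and limma‐voom 0). All 4 passed with it (adjusted p = 0.00433, 0.00305, 0.0123 and 0.0413, edgeR), against 12.8% of all genes called lower. *Dppa2* and *Zfp281* were lost without either *Xist* ΔB+C noDOX library, which left 2, *Dppa2* also without *Xist* ΔA noDOX replicate 1 and *Zfp281* without *Xist* ΔA noDOX replicate 2.

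**Figure D3:**
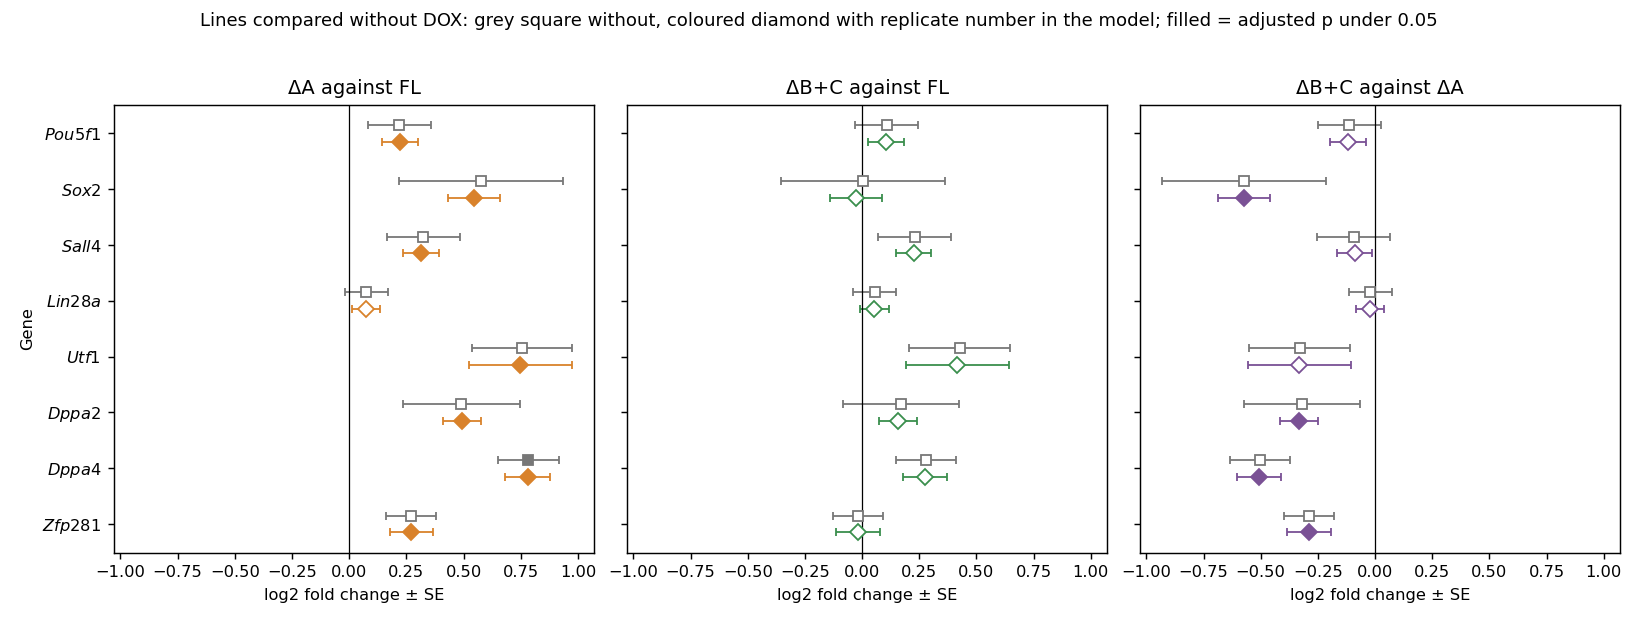
log2 (fold change) ± SE (x axis) of each gene (y axis) between lines without DOX, from the fit without (grey squares) and with (coloured diamonds) the replicate number in the model, filled where the adjusted p was under 0.05. In *Xist* ΔA against *Xist* FL 7 of 8 diamonds and 1 square are filled, all to the right of 0, while in *Xist* ΔB+C against *Xist* FL none is.

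Some of the genes also differed between the replicate numbers. *Sox2* was higher in replicate 2 in all 6 groups, by log2 ratios from 0.33 in *Xist* FL noDOX to 0.80 in *Xist* ΔA DOX. Across the groups it was 0.59 ± 0.07 higher (adjusted p = 0.00012, edgeR), a difference of the same size as that with DOX in *Xist* FL. *Dppa2* was 0.41 ± 0.05 higher (adjusted p = 0.000117), *Sall4* 0.23 ± 0.05 (adjusted p = 0.00164) and *Pou5f1* 0.19 ± 0.05 (adjusted p = 0.006, edgeR), each in 6 of 6 groups. *Lin28a* was lower in replicate 2 in 6 of 6 groups, by −0.11 ± 0.04 (adjusted p = 0.0231, edgeR), a call that held in 4 of 12 fits with 1 library left out and was lost without any noDOX library or either *Xist* ΔA DOX library (adjusted p up to 0.0654).

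*Utf1*, *Dppa4* and *Zfp281* did not pass the test of the replicate number, although *Dppa4* had an unadjusted p of 0.0422 (edgeR). Their differences were 0.14 ± 0.13, 0.13 ± 0.06 and −0.04 ± 0.06 (adjusted p = 0.408, 0.0809 and 0.624, edgeR). Of the 8 genes 4 were higher and 1 lower, against 22.7% and 23.5% of all genes, and the same 4 and 1 went 1 way in all 6 groups, against 20.7% of all genes in each direction. The labels do not say what the number stands for.

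**Figure D4:**
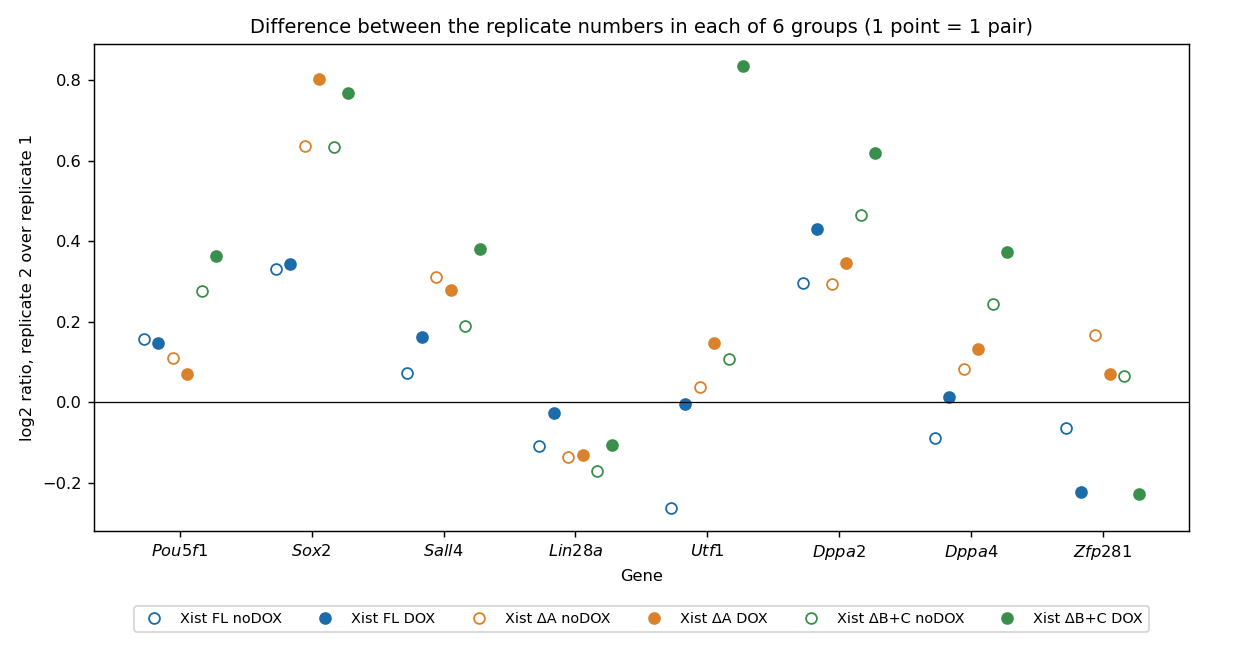
log2 ratio of replicate 2 over replicate 1 (y axis) for each gene (x axis), with 1 point for each of the 6 groups, open without and filled with DOX. All 6 points lay above 0 for *Pou5f1*, *Sox2*, *Sall4* and *Dppa2* and below 0 for *Lin28a*, and the *Xist* ΔB+C DOX point of *Utf1*, at 0.83, stood apart from its other 5.

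Other genes of the same network are given for context, from lists written with results of these data known. The counts with DOX are to be read beside the shares of all tested genes. With the block 5.72% were called higher and 8.13% lower in *Xist* FL, and 9.89% and 12% in *Xist* ΔB+C. Without it the shares were 0.144% and 1.09% in *Xist* FL, and 0.811% and 2.13% in *Xist* ΔB+C. Among 13 target genes that OCT4 and SOX2 are known to share, 0 passed in *Xist* FL without the block, and 3 rose and 1 fell with it. *Jarid2*, a subunit of PRC2, rose by 0.44 ± 0.07 (adjusted p = 0.00253) and *Trim28*, a corepressor, by 0.29 ± 0.08 (adjusted p = 0.0348), while *Tdgf1*, a Nodal co‐receptor, fell by 0.43 ± 0.10 (log2 (fold change) −0.43, adjusted p = 0.0208, edgeR). In *Xist* ΔB+C 5 rose and 1 fell with the block, *Jarid2* again by 0.44 ± 0.07 (adjusted p = 0.00188) and *Tdgf1* with −0.73 ± 0.10 (adjusted p = 0.00103, edgeR). In *Xist* ΔA 0 passed in either fit. The median of the 13 was 0.46 in *Xist* FL and 0.09 in *Xist* ΔA without the block. In *Xist* ΔA against *Xist* FL without DOX, *Lefty2* alone was called without the block. It was lower, at 13.4 and 16 CPM against 48.5 and 60.55 CPM, where 5.54% of all genes were called lower (edgeR). With the block 3 of the 13 were higher in *Xist* ΔA and 4 lower, against 16.2% and 17.2% of all genes (edgeR).

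Of 15 related genes, most of them paralogs of the 8, 0 passed without the block in any of the 3 lines (unadjusted p under 0.05 for 3, 0 and 2 genes of the FL, ΔA and ΔB+C lines, edgeR). With the block 0 passed in *Xist* ΔA, while *Xist* ΔB+C had 2 that rose and 1, X‐linked *Sox3*, that fell, with a median of −0.06 for the list. In *Xist* FL 6 rose with the block. Those in *Xist* FL included *Dppa5a*, by 0.42 ± 0.07 (309 and 477 CPM against 403 and 650.5 CPM, adjusted p = 0.00265, edgeR), an ES cell gene that, like *Dppa3* on the same list, shares a name and not a family with *Dppa2* and *Dppa4*, and *Sox1*, a neural relative of *Sox2*, by 0.78 ± 0.20 (adjusted p = 0.0251, edgeR). Of 13 genes known to depend on DPPA2 and DPPA4 only 4 passed the filter, and 0 of these were called with DOX in *Xist* FL or *Xist* ΔB+C in either fit. Between lines without DOX, 0 were called without the block. With it *Mael*, *Syce1* and *Dazl* were lower in *Xist* ΔB+C than in *Xist* ΔA and 0 higher, against 12.8% of all genes called lower. *Mael* was also higher in *Xist* ΔA than in *Xist* FL with the block, against 16.2% of all genes called higher.

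Of 13 tested genes of the LIN28 and let‐7 axis, *Igf2bp3*, an RNA‐binding protein, fell in *Xist* FL with the block, from 78.7 and 76.4 CPM to 49.8 and 40.7 CPM (log2 (fold change) −0.79 ± 0.12, adjusted p = 0.00295, edgeR). *Trim71* and *Mycn* rose by 0.33 ± 0.09 and 0.50 ± 0.14 (adjusted p = 0.038 and 0.0442, edgeR). In *Xist* ΔB+C *Igf2bp3* was the only gene of this list called with the block, again lower, from 126.8 and 95.1 CPM to 89.6 and 58.1 CPM. In *Xist* ΔA 0 of the 13 were called in either fit. Of 13 subunits and partners of the NuRD repressor, with which SALL4 works, X‐linked *Rbbp7* was the only one to pass without the block in the DOX comparisons. It fell from 415 and 406 CPM to 182 and 146 CPM in *Xist* FL (log2 (fold change) −1.32 ± 0.15, adjusted p = 0.00753, edgeR) and from 376 and 357 CPM to 175 and 128 CPM in *Xist* ΔB+C (−1.27 ± 0.15, adjusted p = 0.00529, edgeR).

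Of 13 naive pluripotency genes 0 passed in *Xist* FL in either fit (unadjusted p under 0.05 for 0 without and 4 with the block, edgeR). Their median was 0.64, above that of the 8 genes, and that of all tested genes was −0.007. In both pairs 11 of the 13 were higher and 1, *Nanog*, lower with DOX. In *Xist* ΔA 1 was higher and 3 lower in both pairs, and in *Xist* ΔB+C 11 and 1. The medians in these lines were 0.087 and 0.602, against 0 and −0.003 for all genes. How many of all genes went 1 way in both pairs was not counted, so the pair counts have no share to be set against. In *Xist* ΔB+C *Zfp42* alone rose with the block, by 1.09 ± 0.30 (adjusted p = 0.0478, edgeR). Between *Xist* ΔA and *Xist* FL without DOX, *Dppa3* was called lower in *Xist* ΔA in either fit, at 1.87 and 2.87 CPM against 11.7 and 13.1 CPM. *Nanog* was called lower there with the block, and 0 of the 13 were called higher in either fit (edgeR). Their median in that comparison was 0.598 without the block. Of 12 formative and primed genes 3 rose and 1 fell in *Xist* FL with the block, *Dnmt3a*, a DNA methyltransferase, by 0.74 ± 0.14 (adjusted p = 0.00899) and *Lef1*, a Wnt effector, with −0.52 ± 0.09 (adjusted p = 0.00359, edgeR). In *Xist* ΔB+C *Lef1* and *Fgf5* were lower without the block, and 2 rose and 3 fell with it. Of 12 tested early germ layer genes *Eomes*, a mesendoderm factor that is also on the trophoblast list, fell without the block in *Xist* FL, from 61.1 and 72.1 CPM to 25.1 and 19 CPM (−1.59 ± 0.29, adjusted p = 0.0427, edgeR), and in *Xist* ΔB+C (−1.38 ± 0.29, adjusted p = 0.0431, edgeR). It was also lower in *Xist* ΔA than in *Xist* FL without DOX, at 29.7 and 25.2 CPM (−1.28 ± 0.29, adjusted p = 0.0279, edgeR). The sum of the 14 germ layer genes was 424 and 279 CPM in *Xist* FL noDOX, 276 and 128 CPM with DOX, and 150 and 129 CPM in *Xist* ΔA noDOX. In *Xist* ΔB+C it was 375 and 214 CPM without and 289 and 134 CPM with DOX. The comparisons in which *Sox2* and *Dppa4* stood higher were thus ones in which this sum stood lower, and its part in the results was not tested. The sum hides genes of the list that went the other way. With the block 2 of the 12 tested were called higher and 3 lower in *Xist* FL with DOX, and 0 and 3 in *Xist* ΔB+C. In *Xist* ΔA against *Xist* FL without DOX 3 were higher and 5 lower, against 16.2% and 17.2% of all genes (edgeR).

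Across the 12 libraries the 8 genes did not vary as a unit. On the scale of log2 (CPM + 0.5), *Sox2* correlated with *Dppa2* at r = 0.92 and with *Sall4* at r = 0.89, and *Utf1* with *Dppa4* at r = 0.87. Within the 6 libraries of replicate 1 and the 6 of replicate 2 these values were 0.67 and 0.97, 0.67 and 0.88, and 0.81 and 0.91. *Lin28a* and *Sox2* had r = −0.47 over the 12, and −0.29 and 0.54 within the replicate numbers, so that the sign was not the same. The 12 libraries share lines, treatments and replicate numbers, so these values only describe the pattern. The tested genes most like *Sox2* were *Tyk2* and *Mib2* (r = 0.988 for both), those most like *Pou5f1* *Med29* and *Trmt61a* (r = 0.985 and 0.977) and those most like *Utf1* *Irf2bpl* and *Rnf39* (r = 0.941 and 0.936). For *Dppa2* they were *Dtx2* and *Exosc5* (0.981 and 0.979), for *Dppa4* *Prr3* and *Inpp5d* (0.966 and 0.962), for *Sall4* *Plod3* and *Insm1* (0.979 and 0.973), for *Lin28a* *Mtmr2* and *Ccnyl1* (0.925 and 0.915) and for *Zfp281* *Rbm26* and *Sp1* (0.932 and 0.91). None of these pairs joined 2 of the 8 genes.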

How the data were processed

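Total RNA libraries of 12 samples were sequenced as paired reads. The authors mapped them to mm10 with TopHat 2.1.0 and the refFlat annotation, keeping 1 alignment per read, and deposited raw counts per gene from featureCounts 1.5.1, 1 file per library, not normalized. Reads shared with near‐identical copies such as pseudogenes may be placed on any copy. Samples were grouped by their labels. The members and lists were chosen with earlier results of these data known.

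A gene entered the tests when 6 or more of the 12 libraries reached 1 CPM. Testing was done with edgeR 4.0.16 (R 4.3.3) by its robust quasi‐likelihood test, with 6 group means, TMM factors from autosomal genes and Benjamini–Hochberg adjustment at 0.05; the study used limma. DESeq2 1.42.0 and limma 3.58.1 (limma‐voom) were alternatives. Scripts were tested on simulated data. CPM are counts scaled by library size and TMM factor. The SE of a log2 (fold change) was its size over the square root of F. The study calls the replicates biological duplicates; the labels do not say what separated them, so p‐values measure the spread between these samples, which may be technical. Libraries with the same replicate number deviated together, with correlations of their differences between 0.399 and 0.82 in all 15 pairs of groups (12721 autosomal genes), so a second fit held the number as a block, and its values are printed where they changed a call. Genes named from other lists were those past the threshold, at most 3 with the smallest p in a list and comparison, or else the 1 with the highest mean. The 2 tested genes of highest Pearson r were named for each of the 8. Figures were drawn with matplotlib 3.10.9.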

Additional observations from a re-analysis of the deposited data

Results flagged for a closer look

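The difference of the *Sox2* response to DOX between *Xist* ΔB+C and *Xist* ΔA stood out because it passed the direct test of a difference between lines. It was 0.664 on the log2 scale with the replicate number as a block (adjusted p = 0.0288, edgeR) and 0.66 without it (adjusted p = 0.683, edgeR). *Sox2* was higher with DOX in both pairs of *Xist* ΔB+C, by 0.57 and 0.70, and in 1 of 2 pairs of *Xist* ΔA, with −0.11 and 0.06. Its mean was 360 CPM in *Xist* ΔB+C and 535.5 CPM in *Xist* ΔA without DOX, and 566.2 and 532.7 CPM with DOX. The lines thus differed mainly without DOX, and the difference of the response uses those same noDOX libraries. Across the fits that left out 1 library, with the block, the difference ran from 0.54 to 0.80 and the adjusted p from 0.0147 to 0.119, with 6 of 12 past the threshold (edgeR). The groups of 2 were too small for a check of single libraries against their group.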

How the results depend on the processing

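The replicate block moved most counts of called genes: with DOX from 0 to 4 (*Xist* FL) and from 0 to 2 (*Xist* ΔB+C), from 0 to 1 for the *Xist* ΔB+C minus *Xist* ΔA difference, and without DOX from 1 to 7 in *Xist* ΔA against *Xist* FL and from 0 to 4 in *Xist* ΔB+C against *Xist* ΔA. DESeq2 without the block gave 2, 2 and 1 for *Xist* FL, *Xist* ΔA against *Xist* FL and *Xist* ΔB+C against *Xist* ΔA. Library totals alone gave 1 in the last, and fitting only the compared lines 2 in *Xist* ΔA against *Xist* FL. With the block, limma‐voom and DESeq2 each called 1 gene, *Sox2*, for *Xist* ΔA minus *Xist* FL, where edgeR called 0. The replicate number called 3 genes within the noDOX and 3 within the DOX libraries, with fewer libraries in each fit. The causes were not tested.

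Values near 0 changed sign. *Pou5f1* in *Xist* FL became 0.01 with DESeq2, 0.00 (0.004) with TMM from all genes and 0.01 with DESeq2 size factors, *Dppa2* in *Xist* ΔA 0.002, 0.003 and 0.002 in the same order and 0.001 without a filter, and within noDOX the replicate difference became −0.039 for *Utf1* and 0.056 for *Zfp281*. No value past the threshold changed sign.

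Leaving out 1 library at a time without the block gave 0 to 1 calls with DOX (*Xist* FL, and likewise *Xist* ΔB+C), 0 to 2 in *Xist* ΔA against *Xist* FL and 0 to 1 in *Xist* ΔB+C against *Xist* ΔA. With the block it gave 0 to 5 calls with DOX for *Xist* FL and 1 to 5 for *Xist* ΔB+C, 0 to 2 for both *Xist* ΔA minus *Xist* FL and *Xist* ΔB+C minus *Xist* ΔA, 3 to 7 in *Xist* ΔA against *Xist* FL, 0 to 1 in *Xist* ΔB+C against *Xist* FL and 2 to 5 in *Xist* ΔB+C against *Xist* ΔA. Among uncalled log2 (fold changes), *Pou5f1*, *Lin28a* and *Zfp281* in *Xist* FL ran from −0.084 to 0.083, −0.032 to 0.068 and −0.10 to 0.13. In *Xist* ΔA *Sox2*, *Sall4*, *Lin28a*, *Utf1* and *Dppa2* ran from −0.47 to 0.35, −0.18 to 0.13, −0.004 to 0.13, −0.005 to 0.14 and −0.19 to 0.16. In *Xist* ΔB+C *Lin28a*, *Utf1*, *Dppa2* and *Zfp281* ran from −0.13 to 0.041, −0.12 to 0.72, −0.12 to 0.50 and −0.086 to 0.14. The *Utf1* difference *Xist* ΔB+C minus *Xist* ΔA ran from −0.19 to 0.65 and the replicate difference of *Zfp281* from −0.076 to 0.003. In these fits a lone library was assumed to vary like the other groups. The lowest count of any of the 8 genes was 2510, and each group held 2 libraries.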
